A study of Mus musculus with 4 samples.

Results

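Solute carriers are membrane proteins that move sugars, amino acids, nucleotide sugars, vitamins, metals and ions across the plasma membrane and the membranes of organelles. They fall into numbered families that mostly share a kind of substrate, and T cells change several of them when they grow or differentiate. The genes described here are the solute carrier genes expressed in CD4+ CD8- mouse thymocytes. They were chosen by symbol (Slc, a family number, a letter and a member number), by taking each gene's probe set of highest average over the 4 arrays, and by a deposited log2 signal of at least 6 on at least 1 array. Of 345 such genes on the array, 88 passed this level, out of 18193 genes in all. Of these 88, 84 are transporters; Slc7a6os, Slc9a3r1, Slc4a1ap and Slc2a4rg-ps only carry a transporter's name. The level was reached on all 4 arrays by 50 genes, on 3 by 15, on 2 by 6 and on 1 array alone by 17. A gene that passed on 1 array alone tends to differ between arrays by the way it was chosen, so the counts below are descriptions. Just inside the level were Slc25a29 at a highest deposited log2 of 6.01 and Slc4a1ap at 6.02, and just outside it were Slc15a4 at 5.98 and Slc9a7 at 5.89.

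RNA was measured on 4 Affymetrix arrays, 1 for each population, from female mice of 6 to 8 weeks whose cells were sorted with magnetic beads and then by flow cytometry. Of the 4 populations, 3 came from Foxp3(gfp/gfp) females, homozygous for a knock-in that joins GFP to the Foxp3 protein, after 4 to 6 generations of backcross from 129/Sv to C57BL/6. They were sorted as negative for both GFP and CD25 (GFP- CD25-), as positive for CD25 alone (GFP- CD25+), or as GFP+, here named Foxp3-fusion. The fourth, here named Foxp3-null, was the GFP+ population of Foxp3(gfpko/wt) females, which carry a knockout allele that makes GFP beside a wild-type allele and had 2 generations of backcross; its free-text description repeats that of the knock-in mice, and its group rests on the title and the strain entry. Foxp3 encodes the transcription factor of regulatory T cells and is X-linked, so a heterozygous female has cells with either allele active. The labels do not give the number of mice behind an array. With 1 array per population there is no replicate error and no p-value, and genotype, backcross and array cannot be told apart in any comparison with Foxp3-null cells. Precision is limited by having 1 array per population.

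Values are quantile-normalized log2 signals, given in the order GFP- CD25-, GFP- CD25+, Foxp3-null and Foxp3-fusion unless stated. A gene was counted as higher or lower at 2-fold or more. Signals under a floor of 4.10 log2, set from genes of other tissues, were raised to it, and a fold with 1 side under the floor is written as "at least". Foxp3 itself read 2.76, 2.88, 7.27 and 8.82 log2; it was part of the sort through GFP, and nothing in the labels places its probe set within or outside the altered stretch, so it does not check the null label. The gap between 3' and 5' actin control probe sets was 8.37, 9.29, 7.10 and 5.02 log2. All 8 measured CD4 T cell markers were above the floor on every array, with a summed signal of 72.8 to 76.6 log2 units per array. Of other cell types, 1 of 7 B cell markers was above the floor on each array (summed signal 19.3, 19.7, 21.2 and 20.2). Myeloid and dendritic markers above the floor numbered 3, 4, 5 and 4 of 12 (summed signal 40.8, 41.5, 46.3 and 42.6), with Itgax, Itgam, Cd68, Lyz2 and Cd14 under it on every array and Mpeg1 at 6.60, 6.83, 6.99 and 6.05 log2. Thymic epithelial markers numbered 2 of 8 on each array, with Foxn1 and Psmb11 under the floor and Epcam at 6.85, 7.13, 7.28 and 6.49 log2, and erythroid markers 1 of 5. Their part in the differences below was not tested. In such bulk samples, fewer cells that express a gene and less RNA per cell cannot be told apart.

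In the comparisons with Foxp3-null cells, the Golgi and endoplasmic reticulum class had the largest share of genes past 2-fold in 1 direction. Apart from Slc35b1, an exchanger of ATP and ADP, its products bring nucleotide sugars, sulfate donor and acetyl-CoA to the enzymes that build glycans. Of the 9 genes in this class, 5 were lower in Foxp3-null than in GFP- CD25- cells. In Foxp3-fusion cells 6 read higher than in their Foxp3-null counterparts. None went 2-fold the other way in either comparison. The shares of all genes past these folds were 9.47% and 11.7%. Slc35a3, Slc35a5, Slc35d1 and Slc35d2 passed the level on every array but Foxp3-null, and Slc35b1 on 2 arrays, so these counts and the class medians describe the genes and are no support. Slc35d1, a transporter of UDP-glucuronic acid and UDP-N-acetylgalactosamine, had the widest span over the arrays. Slc35d1, Slc35a3, Slc35b1 and Slc35a5 were low on the Foxp3-null array, and Slc16a1 was high on the Foxp3-fusion array. Slc16a1 passed the level there alone. The sequences before the listed transcription starts of these genes are shown because they are among those with the largest differences. Each is the 250 bases upstream of a start in the RefSeq table (GRCm38.p6), written 5' to 3' along the gene. Capitals mark the letters of 3 motifs searched on both strands: the forkhead core GTAAACA, the E-box CACGTG and the CCAAT box CCAAT. The listed starts of Slc35d1 and Slc35a3 lie inside longer gene spans. Whether these genes have other starts further upstream was not looked at.
Slc35d1, chr4:103215177-103215426, minus strand: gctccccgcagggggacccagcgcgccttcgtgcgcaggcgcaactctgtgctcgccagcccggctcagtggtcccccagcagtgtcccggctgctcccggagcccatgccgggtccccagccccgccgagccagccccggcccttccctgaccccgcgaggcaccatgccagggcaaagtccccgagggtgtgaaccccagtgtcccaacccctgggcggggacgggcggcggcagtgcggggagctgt
Slc35a3, chr3:116712281-116712530, minus strand: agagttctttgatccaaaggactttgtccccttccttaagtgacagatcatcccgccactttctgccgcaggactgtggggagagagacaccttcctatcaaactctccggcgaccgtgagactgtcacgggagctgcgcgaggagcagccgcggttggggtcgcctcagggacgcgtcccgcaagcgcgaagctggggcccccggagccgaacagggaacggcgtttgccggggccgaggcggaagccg
Slc35b1, chr11:95384606-95384855, plus strand: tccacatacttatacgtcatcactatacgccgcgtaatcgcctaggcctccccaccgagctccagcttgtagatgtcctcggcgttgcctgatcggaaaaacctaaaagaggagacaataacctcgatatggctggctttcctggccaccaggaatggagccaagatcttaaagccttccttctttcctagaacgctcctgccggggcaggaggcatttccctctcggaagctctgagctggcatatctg
Slc35a5, chr16:45158674-45158923, minus strand: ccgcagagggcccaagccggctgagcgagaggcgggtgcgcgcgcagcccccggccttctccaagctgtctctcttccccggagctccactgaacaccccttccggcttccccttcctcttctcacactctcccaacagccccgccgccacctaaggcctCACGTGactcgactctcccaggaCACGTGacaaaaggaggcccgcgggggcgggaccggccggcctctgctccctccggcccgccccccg
Slc16a1, chr3:104638414-104638663, plus strand: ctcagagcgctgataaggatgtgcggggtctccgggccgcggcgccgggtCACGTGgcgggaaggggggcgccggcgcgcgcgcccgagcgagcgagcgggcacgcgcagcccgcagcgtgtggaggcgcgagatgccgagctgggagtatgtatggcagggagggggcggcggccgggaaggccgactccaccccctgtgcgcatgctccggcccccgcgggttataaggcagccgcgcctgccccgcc
The windows of Slc35d1, Slc35a3 and Slc35b1 held none of the 3 motifs, that of Slc35a5 held 2 E-boxes and that of Slc16a1 held 1. The table matched 68 of the 88 genes, 16 of them with several starts, which gave 87 windows. The E-box was present in 13 of these 87 windows (14.9%) and in 6.02% of all 32851 upstream windows of the same length. The forkhead core was in 0 of the 87 windows and in 3.17% of all windows, and the CCAAT box in 29.9% and 33.8%. A match is a run of letters, not a shown binding site.

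Slc35d1 signal was 7.02, 6.68, 4.98 and 9.93 log2. The Foxp3-null array was the lowest and the Foxp3-fusion array the highest, with both GFP- arrays between them. Foxp3-fusion cells were thus 7.52-fold above and Foxp3-null cells 4.13-fold below GFP- CD25- cells. The other Slc35d1 probe set read 5.35, 5.90, 5.65 and 8.16 log2: it was also highest in Foxp3-fusion cells, but its Foxp3-null value was not below the GFP- arrays. The high signal in Foxp3-fusion cells was therefore seen on both probe sets and the low signal in Foxp3-null cells on 1 of them.

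Slc35a3, a UDP-N-acetylglucosamine transporter, read 6.50, 6.92, 4.03 and 7.13 log2. Only the Foxp3-null array was under the floor, at least 5.29-fold below GFP- CD25- cells and at least 8.14-fold below Foxp3-fusion cells. Of its 3 other probe sets, the brightest read 4.12, 4.14, 3.98 and 4.34 log2, close to the floor throughout. Slc35d2, which moves UDP-N-acetylglucosamine and GDP-mannose, read 6.75, 6.67, 5.26 and 6.67 log2 from its only probe set, with Foxp3-null alone low at 2.81-fold below GFP- CD25- cells. Slc35a5 read 7.42, 6.95, 5.19 and 7.12 log2 on the probe set used, which is of a kind that can match several transcripts, again low in Foxp3-null cells alone. A second Slc35a5 probe set read 4.89, 5.51, 6.46 and 4.33 log2, which is highest in Foxp3-null cells and so the reverse of the first; the direction for this gene is not settled by the array.

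Slc35b1, a carrier of the endoplasmic reticulum that exchanges ATP and ADP, read 7.17, 4.20, 4.99 and 6.81 log2. Here both GFP- CD25+ and Foxp3-null cells were low, 7.86-fold and 4.52-fold below GFP- CD25- cells, whereas Foxp3-fusion cells were 0.36 log2 below them. Slc35b3, which brings the sulfate donor PAPS into the Golgi, read 8.73, 8.59, 8.57 and 9.73 log2 and was high in Foxp3-fusion cells alone, 2.01-fold over GFP- CD25- cells. Slc35a1, the CMP-sialic acid transporter, read 7.83, 6.68, 7.41 and 7.86 log2, with GFP- CD25+ cells lowest at 2.21-fold below GFP- CD25- cells; on its other probe set the 4 arrays lay between 5.01 and 5.24 log2. Slc35a2, the UDP-galactose transporter, ran from 10.02 to 10.76 log2 and Slc33a1, the acetyl-CoA transporter, from 7.24 to 8.08 log2, both under 2-fold apart over all 4 arrays.

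**Figure D1:**
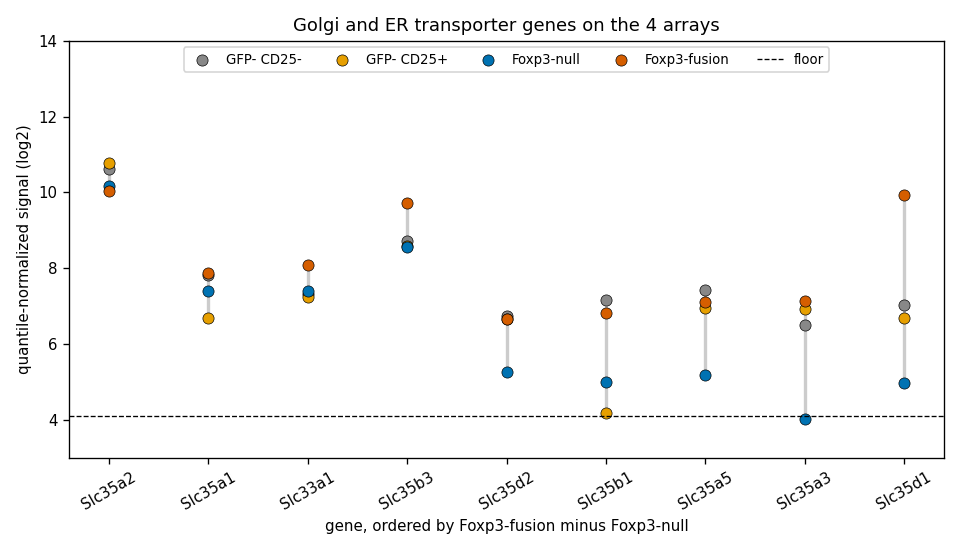
Quantile-normalized log2 signal (vertical axis) of the 9 Golgi and endoplasmic reticulum carrier genes, 1 point per array, with the floor of 4.10 log2 dashed and the genes ordered by Foxp3-fusion minus Foxp3-null. Slc35d2, Slc35a5, Slc35a3 and Slc35d1 have the Foxp3-null point at the bottom, at 5.26, 5.19, 4.03 and 4.98 log2, and in Slc35b1 the GFP- CD25+ point is lower still at 4.20.

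For this group of 9, the median log2 difference was -1.49 in Foxp3-null over GFP- CD25- cells, against 0.22 over all 5935 genes that pass the same level. It was 1.41 in Foxp3-fusion over Foxp3-null cells, against -0.13 over all such genes. As deposited, before quantile normalization, the same medians were -1.69 (all genes, -0.09) and 1.85 (all genes, 0.46). On that scale 8 of the 9 genes passed 2-fold in favour of Foxp3-fusion over Foxp3-null cells, against 25.5% of all genes. With arrays centred on their medians the 9 genes gave -1.24 and 1.16, with the same counts of 5 and 6. The shares of all genes were then 7.46% and 9.71%. These scalings all use the same probe sets. Of the genes low in Foxp3-null cells, Slc35a5, Slc35d1 and Slc35a3 have other probe sets. The brightest of these gave 1.58, 0.30 and -0.02 log2 in Foxp3-null over GFP- CD25- cells. In Foxp3-fusion over Foxp3-null cells they gave -2.13, 2.51 and 0.24 log2. The Slc35a3 values lie near the floor. On the normalized scale, the class median in Foxp3-fusion over GFP- CD25- cells was 0.04 (all genes, -0.01). There 2 genes were higher and 0 lower, against 12.6% and 6.79% of all genes. The comparisons share arrays and are not independent of each other.

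**Figure D2:**
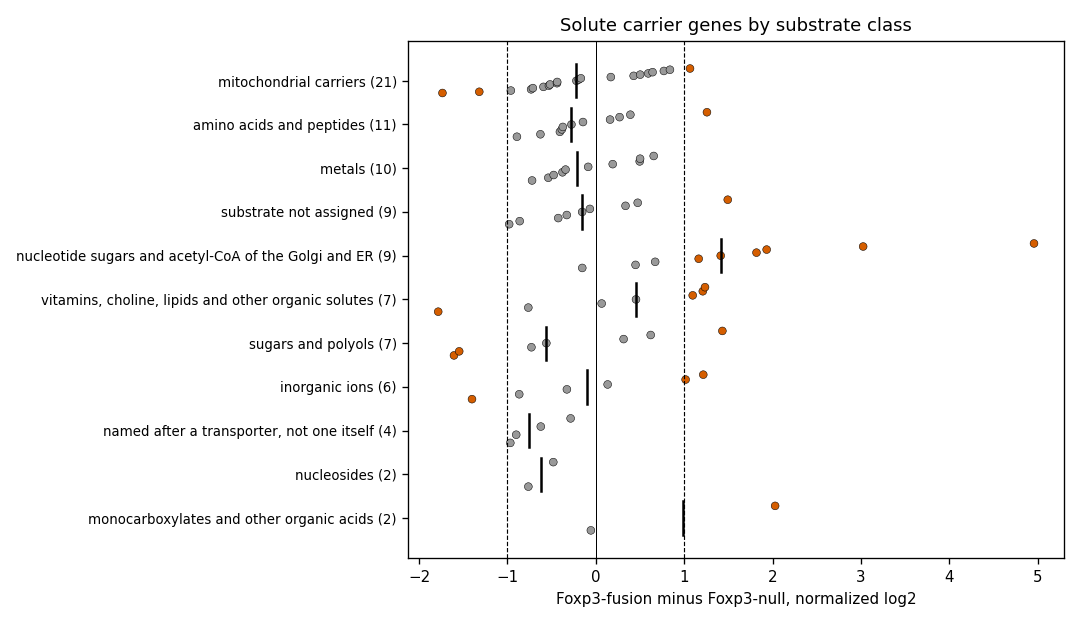
Difference of Foxp3-fusion minus Foxp3-null in normalized log2 (horizontal axis) for each of the 88 genes, 1 point per gene, by substrate class with the number of genes in brackets; vertical bars are class medians, dashed lines mark 2-fold and points past them are orange. The Golgi and endoplasmic reticulum class has its median at 1.41, while the metal class lies between the dashed lines throughout.

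Over all substrates, 12 of 88 genes (13.6%) were higher in Foxp3-fusion than in GFP- CD25- cells, against 12.6% of the 5935 genes passing the same level, and 7 (7.95%) were lower, against 6.79%. For Foxp3-null against GFP- CD25- cells, 8 genes (9.09%) were higher, against 12.1%, and 10 (11.4%) were lower, against 9.47%. Foxp3-fusion cells exceeded Foxp3-null cells for 16 genes (18.2%), against 11.7%, and were below them for 6 (6.82%), against 9.37%. In GFP- CD25+ over GFP- CD25- cells 4 genes (4.55%) were higher, against 5.09%, and 9 (10.2%) were lower, against 5.75%. The shares furthest above those of all genes were the 18.2% and the 10.2%; the others lie near them. Among the 50 genes at the level on all 4 arrays, the counts higher and lower were 3 and 3, 2 and 1, 2 and 2, and 1 and 5 in the same order of comparisons. No count was made over all genes at the level on all 4 arrays, so these have no share to stand beside.

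These counts depend on how the arrays are scaled. On the deposited scale, Foxp3-null against GFP- CD25- cells gave 4 genes higher and 15 lower, so that 21.1% of the genes 2-fold apart were higher, against 44.4% after normalization. Foxp3-fusion over Foxp3-null gave 30 higher and 3 lower (90.9% against 72.7%), or 11 and 10 (52.4%) with arrays centred on their medians. All genes moved likewise: as deposited 25.5% were higher and 3.07% lower in this comparison, so that 89.3% of those 2-fold apart were higher. With centring, 9.71% of all genes were higher and 11.7% lower in it. For Foxp3-null against GFP- CD25- cells, 6.23% of all genes were higher and 15.1% lower as deposited. Centring gave 5 solute carrier genes higher and 7 lower (41.7% against 30.8%) in GFP- CD25+ over GFP- CD25- cells, against 6.59% and 4.68% of all genes. Several differences past 2-fold were under it on the deposited scale: Slc12a9 in Foxp3-fusion over GFP- CD25- cells, Slc22a16, Slc25a25, Slc25a12 and Slc5a9 in Foxp3-null over GFP- CD25- cells, and Slc5a2, Slc20a1 and Slc25a12 in Foxp3-fusion over Foxp3-null cells. The median over all 5935 genes moved with the deposited values too, from -0.01 to 0.23 in Foxp3-fusion over GFP- CD25- cells, from 0.22 to -0.09 in Foxp3-null over GFP- CD25- cells, from -0.13 to 0.46 in Foxp3-fusion over Foxp3-null cells and from 0.11 to -0.09 in GFP- CD25+ over GFP- CD25- cells.

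Over the 4 arrays, 47 of the 88 genes (53.4%) spanned less than 2-fold, against 50.5% of all genes passing the level. The span was widest for Slc35d1 at 4.96 log2 and narrowest for Slc17a5, the lysosomal sialic acid exporter, at 0.19 log2. By class, the span stayed under 2-fold for 8 of 10 metal carriers, 15 of 21 mitochondrial carriers and 7 of 11 amino acid and peptide carriers. It did so for 2 of 9 Golgi and endoplasmic reticulum carriers, 2 of 7 sugar and polyol carriers, 1 of 6 inorganic ion carriers and 1 of 7 carriers of vitamins, choline and other organic solutes.

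Sugar carriers differed between members. Slc2a1, which encodes the glucose transporter GLUT1, read 9.92, 10.03, 9.16 and 9.78 log2, under 2-fold apart on all arrays after normalization. On the deposited scale its difference was -1.11 log2 in Foxp3-null over GFP- CD25- cells and 1.22 log2 in Foxp3-fusion over Foxp3-null cells, both past 2-fold. Slc2a3, the gene of the high-affinity glucose transporter GLUT3, read 8.06, 6.98, 7.09 and 8.52 log2. Foxp3-fusion and GFP- CD25- cells were thus both above GFP- CD25+ and Foxp3-null cells, with Foxp3-fusion 2.70-fold over Foxp3-null cells. Its second bright probe set had the same order at the top, with 8.00, 6.46, 6.73 and 8.40 log2; both probe sets are of a kind that can match several transcripts.

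Slc5a3, a sodium-coupled carrier of the osmolyte myo-inositol, read 5.95, 7.26, 7.36 and 7.67 log2, with GFP- CD25- cells alone low and Foxp3-fusion cells 3.30-fold above them. A second probe set of nearly equal brightness read 7.41, 7.49, 6.52 and 6.51 log2, higher in both GFP- populations. The annotated span of Slc5a3 overlaps that of Mrps6, and which transcript each probe set reads was not tested. Slc5a9, a sodium-coupled sugar carrier, read 5.18, 7.11, 6.24 and 4.63 log2 and was highest in GFP- CD25+ cells, 3.83-fold over GFP- CD25- cells; its next probe set also peaked there, at 5.43 log2 against 3.72 to 4.38 elsewhere. Slc5a2, known as a kidney glucose carrier, read 8.58, 8.66, 8.74 and 7.20 log2, low in Foxp3-fusion cells alone, but its gene span overlaps that of Rusf1. Slc37a3, of the sugar phosphate carrier family, read 6.07, 5.24, 5.24 and 4.68 log2, lowest in Foxp3-fusion cells at 2.63-fold below GFP- CD25- cells. Slc5a9 passed the level on the GFP- CD25+ array alone and Slc37a3 on the GFP- CD25- array alone. Their being high there follows from how they were chosen. Slc50a1, a sugar efflux carrier, lay between 7.03 and 7.76 log2.

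Slc16a1 encodes MCT1, a proton-coupled carrier of lactate and pyruvate. It read 5.73, 6.00, 5.23 and 7.26 log2, so that Foxp3-fusion cells stood above the other 3 arrays, 2.90-fold over GFP- CD25- cells and 4.08-fold over Foxp3-null cells. Slc16a1 passed the level on the Foxp3-fusion array alone, so its being high there follows from how it was chosen. On the deposited scale these differences were 1.84 and 2.50 log2, in place of 1.53 and 2.03. No array read above the floor on its other probe set. Slc16a6, of the same family, ran from 7.10 to 7.96 log2, and Slc16a3, the lactate exporter gene of glycolytic cells, did not reach the level, with a highest deposited value of 2.45 log2.

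Of the 11 amino acid and peptide carriers, 7 (63.6%) spanned less than 2-fold over the arrays, against 50.5% of all genes passing the level. Slc38a2, a sodium-coupled neutral amino acid carrier, read 11.52, 11.15, 11.26 and 10.85 log2 and Slc38a1, its close relative, 9.56, 9.68, 9.20 and 9.59 log2, neither 2-fold apart. Slc7a1, the arginine and lysine carrier, read 9.93, 10.78, 10.36 and 9.73 log2, highest in GFP- CD25+ cells at 0.85 log2 over GFP- CD25- cells; its second probe set ran in the same direction, at 7.24 against 6.03 log2. Of the 11 genes, 4 spanned at least 2-fold over the arrays: Slc43a2, Slc1a5, Slc3a2 and Slc7a1.

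Slc43a2, a carrier of large neutral amino acids, read 8.22, 8.01, 10.14 and 9.86 log2, with both GFP+ populations above both GFP- populations, each read on 1 array. Foxp3-null cells were 3.77-fold and Foxp3-fusion cells 3.11-fold over GFP- CD25- cells. A second probe set was smaller in range but also had both GFP+ populations on top, at 5.82, 5.83, 6.18 and 6.35 log2. The share of all genes split this way between GFP+ and GFP- arrays was not counted, here or for Slc9a8, Slc35g1 and Slc12a9 below. Slc1a5, the glutamine carrier ASCT2, read 5.73, 5.56, 4.87 and 6.13 log2, with Foxp3-fusion 2.39-fold over Foxp3-null cells. Slc1a5 passed the level on the Foxp3-fusion array alone, so its being high there follows from how it was chosen. Slc3a2, the heavy chain CD98 that carries the light chains of several amino acid carriers to the surface, read 5.75, 4.33, 5.83 and 6.10 log2 and was low in GFP- CD25+ cells alone, 2.67-fold below GFP- CD25- cells. The light chain gene Slc7a5 did not reach the level, with a highest deposited value of 4.77 log2, while the light chain gene Slc7a6 read 7.88, 8.25, 8.29 and 7.40 log2. Slc15a2, a peptide carrier, ran from 8.37 to 9.32 log2 and Slc6a6, the taurine carrier, from 7.97 to 8.61 log2. Slc38a6 and Slc38a9, the latter an arginine sensor of the lysosome, were also under 2-fold apart on the probe sets used. For Slc38a9 another probe set read 7.32, 5.54, 5.63 and 5.19 log2, highest in GFP- CD25- cells. Further Slc38a9 probe sets, at 6.19, 5.89, 5.62 and 5.55 log2 and at 5.16, 4.19, 3.08 and 4.15 log2, were also highest there. Its remaining probe sets were under the floor on every array.

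Among carriers of vitamins, choline and other organic solutes, 4 of 7 genes were higher and 1 was lower in Foxp3-fusion than in GFP- CD25- cells, against 12.6% and 6.79% of all genes. Of the 4 higher genes, Slc19a1, Slc22a2 and Slc22a5 passed the level on the Foxp3-fusion array alone, so their being high there follows from how they were chosen and the count is no support. Slc19a1, the reduced folate carrier, read 4.97, 5.62, 5.02 and 6.26 log2, with Foxp3-fusion cells on top at 2.44-fold over GFP- CD25- cells. Slc22a5, the carnitine carrier OCTN2, showed the same order at the top with 5.28, 5.57, 5.24 and 6.45 log2. Slc14a1, a urea channel, read 6.42, 5.97, 6.77 and 7.87 log2, and its second probe set was above the floor only in Foxp3-fusion cells, at 5.55 log2.

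Slc22a2, an organic cation carrier, was the only gene of this class that lay under the floor in GFP- CD25- cells. It read 2.77, 5.77, 6.07 and 6.52 log2, so that GFP- CD25+, Foxp3-null and Foxp3-fusion cells were at least 3.18-fold, 3.90-fold and 5.34-fold higher. It has 1 probe set and reached the deposited level on 1 array alone. Slc22a16, a carnitine carrier, read 6.10, 6.50, 7.47 and 5.69 log2, highest in Foxp3-null cells, which were 3.44-fold above Foxp3-fusion cells.

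The choline carrier gene Slc44a2 went the other way from the class. It read 13.00, 11.89, 12.53 and 11.76 log2, highest in GFP- CD25- cells and 2.36-fold lower in Foxp3-fusion cells. A second probe set, of 9.08, 7.21, 7.91 and 8.03 log2, was also highest in GFP- CD25- cells but put GFP- CD25+ cells lowest. The remaining Slc44a2 probe set read 5.50, 5.72, 5.73 and 5.35 log2, under 2-fold apart and not highest in GFP- CD25- cells. Slc44a1, another choline carrier, ran from 8.02 to 8.51 log2.

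**Figure D3:**
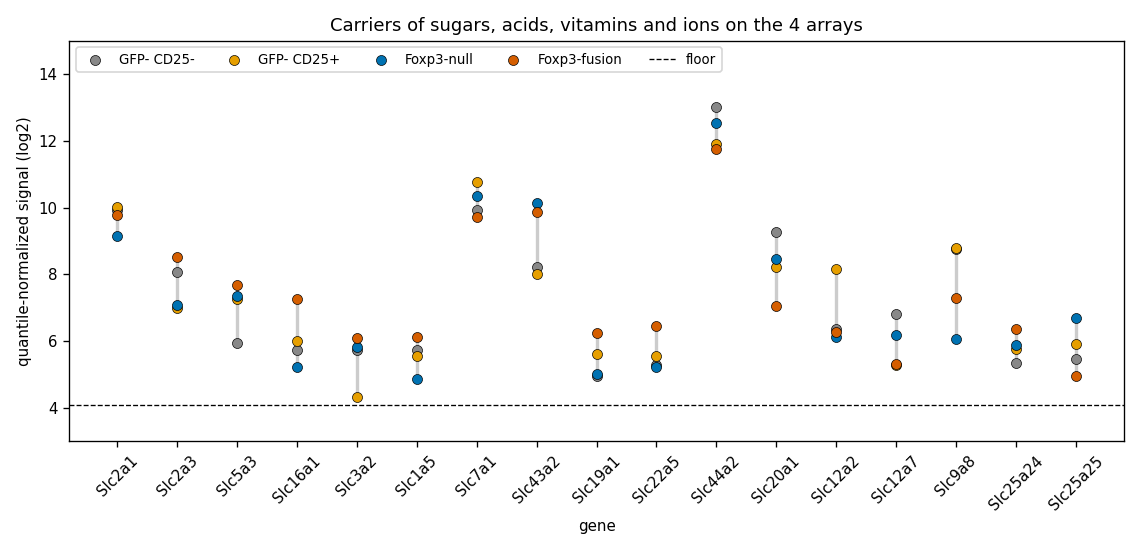
Quantile-normalized log2 signal (vertical axis) of 17 carrier genes on the 4 arrays, 1 point per array, with the floor of 4.10 log2 dashed. Slc16a1, Slc19a1 and Slc22a5 have the Foxp3-fusion point on top at 7.26, 6.26 and 6.45 log2, Slc43a2 has both GFP+ points above both GFP- points, and Slc20a1 has the Foxp3-fusion point lowest at 7.06 log2.

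Inorganic ion carriers were lower in Foxp3-fusion than in GFP- CD25- cells for 3 of 6 genes and higher for 1, against 6.79% and 12.6% of all genes. With centring 4 were lower, against 6.55% of all genes. Slc12a7 and Slc9a9 passed the level on the GFP- CD25- array alone and Slc26a2 on the Foxp3-fusion array alone, so the count is no support. Slc20a1, a sodium-phosphate carrier, read 9.26, 8.21, 8.46 and 7.06 log2. GFP- CD25- cells were highest and Foxp3-fusion cells lowest, 4.58-fold below them; the gene's other 2 probe sets were under the floor on every array. Against Foxp3-null cells Foxp3-fusion cells were 2.64-fold lower, but only 0.78 log2 lower on the deposited scale. Slc12a7, a potassium-chloride cotransporter, read 6.81, 5.27, 6.18 and 5.31 log2, with GFP- CD25+ and Foxp3-fusion cells both about equally low, 2.91-fold and 2.83-fold below GFP- CD25- cells.

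Slc12a2 encodes the sodium-potassium-chloride cotransporter NKCC1, which loads the cell with chloride. It read 6.36, 8.16, 6.13 and 6.26 log2 and stood out in GFP- CD25+ cells alone, 3.50-fold over GFP- CD25- cells. Its other probe sets were near or under the floor. Slc9a8, a sodium-proton exchanger of the Golgi and endosomes, read 8.77, 8.80, 6.08 and 7.29 log2. Both GFP+ populations lay below both GFP- populations, Foxp3-null cells by 6.49-fold and Foxp3-fusion cells by 2.79-fold against GFP- CD25- cells. Among genes above the floor on both arrays it had the largest downward difference of Foxp3-null from GFP- CD25- cells. Slc26a2, a sulfate carrier, read 5.51, 5.19, 5.78 and 6.79 log2, highest in Foxp3-fusion cells. Its second probe set had the same array on top, at 7.24 log2, against 5.07 in GFP- CD25- and 5.74 in Foxp3-null cells. Slc9a9, an endosomal exchanger of the same family as Slc9a8, ran from 5.37 to 6.26 log2.

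**Figure D4:**
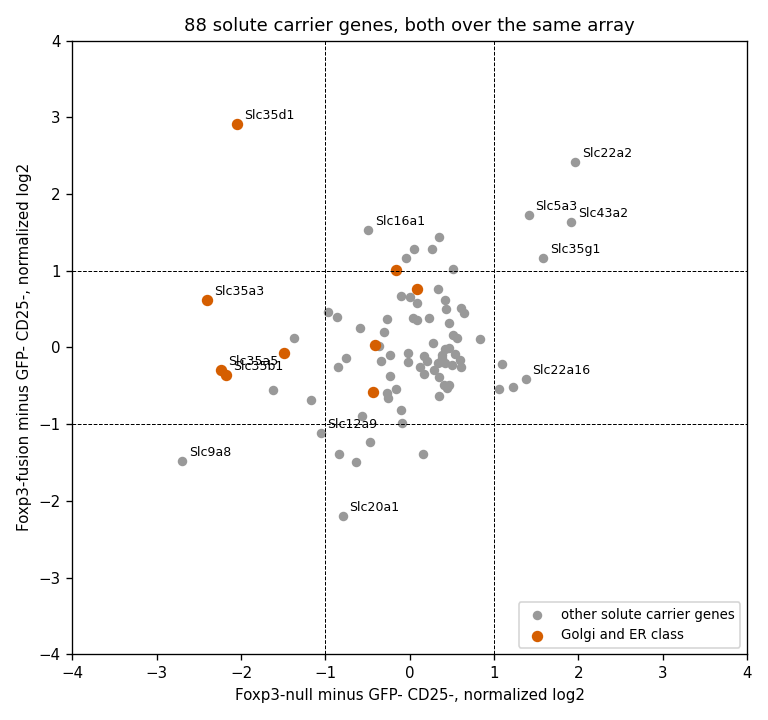
Differences from GFP- CD25- cells in normalized log2, Foxp3-null on the horizontal and Foxp3-fusion on the vertical axis, 1 point per gene, with the Golgi and endoplasmic reticulum class in orange values under the floor set to it, and dashed lines at 2-fold. Both axes use the same GFP- CD25- array, so the points are not independent along them; Slc35d1 lies at -2.05 and 2.91, Slc9a8 at -2.70 and -1.48 and Slc43a2 at 1.91 and 1.64.

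None of the 10 metal carrier genes was 2-fold apart in any comparison of Foxp3-fusion, Foxp3-null and GFP- CD25- cells on the normalized scale. Of all genes, 12.6% were higher and 6.79% lower in Foxp3-fusion over GFP- CD25- cells. The shares were 12.1% and 9.47% in Foxp3-null over GFP- CD25- cells, and 11.7% and 9.37% in Foxp3-fusion over Foxp3-null cells. On the deposited scale 3 of the 10 metal carriers passed 2-fold in Foxp3-fusion cells over the Foxp3-null array, against 25.5% of all genes. Slc39a10, a zinc importer, was the only member lower in GFP- CD25+ cells, with 6.39, 5.27, 6.48 and 6.98 log2, or 2.17-fold below GFP- CD25- cells. The zinc exporter Slc30a1 ran from 6.66 to 7.73 log2, the Golgi zinc carrier Slc30a5 from 6.61 to 7.40 log2, Slc30a9 from 7.87 to 8.70 log2 and the zinc importer Slc39a6 from 7.08 to 8.01 log2. The other zinc carriers Slc30a4, Slc30a6, Slc30a7 and Slc39a7 and the magnesium carrier Slc41a1 were each under 2-fold apart over the 4 arrays. The iron carriers Slc11a2 and Slc40a1 did not reach the level.

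Mitochondrial carriers of family 25 were the largest class, with 21 genes. Of these, 1 was higher and 0 were lower in Foxp3-fusion than in GFP- CD25- cells, against 12.6% and 6.79% of all genes; 2 were higher and 1 lower in Foxp3-null than in GFP- CD25- cells, against 12.1% and 9.47%. The ADP/ATP exchangers Slc25a4, at 11.83, 12.50, 11.49 and 11.66 log2, and Slc25a5, at 11.63, 11.35, 12.19 and 11.75 log2, were under 2-fold from GFP- CD25- cells in each population on the probe sets used. Another Slc25a4 probe set read 6.21, 7.27, 7.51 and 7.54 log2, over 2-fold higher in the other 3 populations than in GFP- CD25- cells. The phosphate carrier Slc25a3 read 10.06, 10.14, 10.39 and 10.82 log2 and the pyrimidine nucleotide carrier Slc25a36 11.04, 10.82, 10.19 and 10.78 log2. Both other Slc25a36 probe sets were instead highest in Foxp3-null cells, at 6.75 and 6.58 log2 against 5.62 and 5.70 in GFP- CD25- cells. Slc25a5 has 8 probe sets, and its signal in Foxp3-null cells was above that in GFP- CD25- cells on some and below it on others.

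Both calcium-regulated ATP-magnesium and phosphate carriers differed, but each passed the level only on the array where it was highest. Their differences therefore follow in part from how they were chosen. Slc25a24 read 5.36, 5.78, 5.87 and 6.38 log2, highest in Foxp3-fusion cells at 2.03-fold over GFP- CD25- cells. Slc25a25 read 5.47, 5.93, 6.69 and 4.95 log2, highest in Foxp3-null cells and lowest in Foxp3-fusion cells, which were 3.33-fold apart; its span overlaps that of Naif1. Slc25a12, an aspartate-glutamate carrier, read 6.08, 6.06, 7.18 and 5.86 log2 and was high in Foxp3-null cells alone. A second Slc25a12 probe set read 5.29, 5.09, 4.78 and 4.69 log2 and did not show this. Slc25a45 read 7.03, 6.94, 5.41 and 6.48 log2, low in Foxp3-null cells at 3.07-fold below GFP- CD25- cells. The other mitochondrial members were Slc25a14, Slc25a15, Slc25a16, Slc25a20, Slc25a22, Slc25a28, Slc25a29, Slc25a32, Slc25a37, Slc25a46, Slc25a51 and Slc25a53, each under 2-fold over the arrays on the probe set used, and Slc25a39, which spanned 1.27 log2. On another probe set Slc25a20 was 1.64 log2 and Slc25a46 1.14 log2 higher in Foxp3-fusion than in GFP- CD25- cells, and Slc25a53 was at least 1.02 log2 lower in Foxp3-null than in GFP- CD25- cells. In Foxp3-fusion over Foxp3-null cells, the class had 1 gene higher and 2 lower on the normalized scale, 7 higher and 1 lower as deposited, and 0 higher and 3 lower with centring, so its direction there follows the scaling. In the same order, the shares of all genes were 11.7% and 9.37%, 25.5% and 3.07%, and 9.71% and 11.7%.

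Nucleoside and nucleotide carriers were represented by Slc29a3, a lysosomal carrier at 7.06 to 7.54 log2, and Slc17a9, a vesicular nucleotide carrier at 5.58 to 6.34 log2; neither was 2-fold apart. The plasma membrane nucleoside carrier gene Slc29a1 did not reach the level. Among 9 members to which no substrate was assigned, Slc35g1 read 5.43, 5.92, 7.02 and 6.59 log2, higher in both GFP+ populations than in both GFP- populations. Slc35g1 passed the level on the GFP+ arrays alone, so its being high there follows from how it was chosen. Slc12a9 read 7.06, 7.12, 6.01 and 5.94 log2, lower in both GFP+ populations. Slc22a15 read 5.98, 5.67, 4.61 and 6.11 log2 and was low in Foxp3-null cells alone, and Slc35e2 read 7.81, 6.71, 6.65 and 7.12 log2, highest in GFP- CD25- cells. Slc38a10 ran from 9.56 to 10.61 log2, just over 2-fold; its next probe set read 7.58, 6.60, 9.03 and 7.64 log2, highest in Foxp3-null cells. Slc10a7, Slc35a4 and Slc35e1 were under 2-fold apart. Of the 4 genes that only carry a transporter's name, none was 2-fold apart on any pair of arrays compared on the probe set used. Slc9a3r1, a scaffold protein gene, read 9.53, 9.44, 9.96 and 8.99 log2; another of its probe sets read 6.73, 7.43, 8.72 and 6.92 log2, highest in Foxp3-null cells.

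A second probe set above the floor was available for a minority of the genes counted. In Foxp3-fusion over GFP- CD25- cells it existed for 7 of 19 genes and had the same direction for 6, 2-fold for 4. In Foxp3-null over GFP- CD25- cells it existed for 7 of 18 and had the same direction for 3, the opposite for Slc25a12, Slc35a5, Slc35d1 and Slc5a3; it was 2-fold in the same direction for 0 and in the opposite direction for 1, Slc35a5. For Foxp3-fusion over Foxp3-null cells it had the same direction for 7 of 9 genes (2-fold for 4, and 2-fold opposite for 1), and for GFP- CD25+ over GFP- CD25- cells for 4 of 5 (2-fold for 3).

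Other genes of transport were read from a list of 42, of which 31 passed the same level: chaperones of carriers, ion pumps, ABC transporters and genes that sense amino acids, metals and salt. In Foxp3-fusion over GFP- CD25- cells 5 of 31 were higher and 2 lower, against 12.6% and 6.79% of all genes, with a median of 0.39 log2 against -0.01 over all genes. Rragd, a GTPase of the amino acid signal to mTORC1, read 4.24, 4.96, 5.81 and 7.84 log2 and was 12.1-fold higher in Foxp3-fusion cells. The cholesterol exporter gene Abca1 was 3.85-fold, the hypoxia factor gene Hif1a 3.56-fold, the multidrug exporter gene Abcb1a 3.26-fold and the calcium pump gene Atp2a2 2.20-fold higher. The calcium pump gene Atp2a3 was 2.76-fold and the copper pump gene Atp7a 2.63-fold lower. Rragd and Abcb1a read above 6 log2 on the Foxp3-fusion array alone, and Rragd lay near the floor in GFP- CD25- cells. Their being high in Foxp3-fusion cells follows from how they were chosen, so the count and the median are no support.

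Against the same GFP- CD25- array, 4 of the 31 were higher in Foxp3-null cells and 3 lower, against 12.1% and 9.47% of all genes. Atp7a read 8.58, 9.04, 5.17 and 7.18 log2, lowest in Foxp3-null cells at 10.6-fold below GFP- CD25- cells. Stk39, a kinase that activates Slc12a2, was 4.73-fold lower and the iron regulatory gene Aco1 2.83-fold lower. Emb, a chaperone of monocarboxylate carriers, was 2.04-fold, Mtf1, the zinc-sensing transcription factor, 2.17-fold, Lamtor1 2.09-fold and Rragd 2.96-fold higher. Emb, Mtf1 and Lamtor1 were under 2-fold higher on the deposited scale. In Foxp3-fusion over Foxp3-null cells 8 were higher and 2 lower, against 11.7% and 9.37%. Rragd and Abcb1a are among the 8, so this count is no support either. In GFP- CD25+ over GFP- CD25- cells 1 was higher, Rptor at 5.09-fold, and 2 were lower, Atp1b3 and Stk39, against 5.09% and 5.75%. Rptor read 4.49, 6.84, 3.46 and 4.01 log2, above 6 log2 in GFP- CD25+ cells alone and near or under the floor elsewhere. Its being high there follows from how it was chosen.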

How the data were processed

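Expression was measured on 4 Affymetrix mouse 430 2.0 arrays, 1 per population. Per the labels' protocols, RNA was converted to biotinylated cRNA with 2 rounds of amplification. The deposited values, 1 for each probe set on each array, were taken as log2 from their range; the authors' background correction, summarisation and normalization are not given in the sources used here. The 90th percentile of the deposited log2 values ran from 7.54 to 8.16 across arrays, so they were quantile normalized for differences, after 64 control probe sets of 45101 probe sets were left out. Membership used the deposited values.

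Of the probe sets, 34945 carry 1 gene symbol in the platform's annotation and were named by it; 932 carry several and 9160 none, and these were left unnamed. To set the floor, the 90th percentile of 82 probe sets of 44 genes of other tissues was taken on each array, and the highest was used. A gene was counted at 2-fold. The 4 comparisons were made without a test. The main counts are set beside the same count over all 5935 genes passing the level. Those of the 50 genes at the level on all 4 arrays have no such share. Substrate classes were assigned by family; the entry for genes that only carry a transporter's name was added after the data were seen.

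Genes were named if among the 10 largest differences of a comparison in either direction, if among the 2 of highest mean in their class, or if in a list of carriers known in T cells. Other members and probe sets were chosen after their values were seen. Members and lists were chosen with earlier results of these data known. The alternatives were the deposited values, arrays centred on the median above the floor, the median over probe sets, no probe sets that can match several transcripts, a level of 7, and 3-fold. Scripts (Python 3.11.15, pandas 2.3.3) were tested on simulated data. Chromosomes, gene spans and promoter windows are RefSeq's (GRCm38.p6); all 88 genes were found in the gene table.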

Additional observations from a re-analysis of the deposited data

Results flagged for a closer look

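Slc35d1 was the only gene of the 88 that was at least 2-fold higher in 1 population and at least 2-fold lower in another over the same GFP- CD25- array. The difference was 2.91 log2 in Foxp3-fusion cells and -2.05 log2 in Foxp3-null cells. The difference between these populations was not tested, since each has 1 array. The other Slc35d1 probe set read 5.35 log2 in GFP- CD25-, 5.65 in Foxp3-null and 8.16 in Foxp3-fusion cells, so it showed the higher but not the lower signal.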

How the results depend on the processing

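The counts are of genes higher or lower by 2-fold. With deposited values the counts that moved by over 1.5-fold were 4 higher in Foxp3-null over GFP- CD25- cells (8 in the main analysis), and 30 higher and 3 lower in Foxp3-fusion over Foxp3-null cells (16 and 6). The shares of all genes as deposited were 6.23%, 25.5% and 3.07%. With arrays centred on their medians, 10 were lower in Foxp3-fusion over Foxp3-null cells, against 11.7% of all genes. The median over probe sets left 48 genes at the level, with 1 lower in Foxp3-fusion over GFP- CD25-, 4 higher and 5 lower in Foxp3-null over GFP- CD25-, 8 higher and 2 lower in Foxp3-fusion over Foxp3-null, and 4 lower in GFP- CD25+ over GFP- CD25- cells. In the same order, the shares of all 3757 genes were 4.13%, 10.7%, 8.70%, 13.2%, 6.10% and 6.10%. A level of 7 left 61 genes, with 7 higher in Foxp3-fusion over GFP- CD25-, 3 higher in Foxp3-null over GFP- CD25-, 3 lower in Foxp3-fusion over Foxp3-null and 2 higher in GFP- CD25+ over GFP- CD25- cells. The shares of all 4631 genes at that level were 13.6%, 12.0%, 8.85% and 5.44%. At 3-fold the counts were 4 higher and 1 lower, 3 higher and 6 lower, and 5 higher and 3 lower in the first 3 of these comparisons, and 1 lower in GFP- CD25+ over GFP- CD25- cells. The shares of all 5935 genes at 3-fold were 5.17% and 1.87%, 3.76% and 4.16%, 5.09% and 2.86%, and 1.62% in the same order. Fewer genes at the level or a higher fold lower these counts by construction; for the scaling, the cause was not tested.

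Of 55 named genes in 4 comparisons, 220 values moved by less than 1.5-fold with centring, 193 with deposited values, 162 with the median over probe sets and 186 of 216 without probe sets that can match several transcripts. Deposited values changed the sign of 34 values and centring of 4, none past 2-fold before. Values past 2-fold that changed sign did so with the choice of probe sets. The median over probe sets turned Slc25a12 in Foxp3-null over GFP- CD25- cells to -0.51 and Slc35a5 there to 0.071. Without probe sets that can match several transcripts, Slc35a5 was 1.58 in Foxp3-null over GFP- CD25- and -2.13 in Foxp3-fusion over Foxp3-null cells, and Slc5a9 was 0.28 in the latter. Slc3a2 then had no probe set left. No paired analysis was possible because each population has 1 array.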
